A study of Mus musculus with 8 samples.

Results

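The Wnt pathway genes described here are the 45 gene names on the array that begin with Wnt, Fzd, Dkk, Sfrp or Axin and a number, together with Lrp5, Lrp6, Lef1 and the gene names beginning with Tcf7. The rule reads only the gene name, and its members make up 45 of the 36163 gene names measured, on 57 probes. They comprise 19 Wnt ligands, 12 receptors (10 Frizzleds, Lrp5 and Lrp6), 8 secreted antagonists, 2 Axin scaffolds and 4 Tcf/Lef transcription factors. Total RNA and Ago–RNA, the RNA that co-precipitates with the Argonaute proteins of the RNA-induced silencing complex (RISC), were measured on 8 one-color Agilent arrays. The cells were mouse E14Tg2A ES cells, a single line, grown with serum and LIF (ES, 0 days in vitro, DIV), and cells neuralized from them in serum-free medium with N2/B27. These were floating epiblast-like aggregates (ELA, 2 DIV), adherent neural progenitor cells (NPC, 6 DIV) and neural precursors kept without B27 in the last days (NPC/Neu, 10 DIV). Ago–RNA was precipitated with the anti-pan Ago antibody 2A8, from a cytosolic fraction according to the methods, and total RNA was not fractionated. RNA of 3 independent experiments was pooled before hybridization, and each of the 4 stages had 1 Ago–RNA and 1 total RNA array, so no value has a replicate and no difference could be tested.

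Wnt ligands are secreted lipid-modified proteins that bind Frizzled receptors and the co-receptors Lrp5 and Lrp6. In the canonical branch this stops the Axin scaffold from driving the destruction of beta-catenin, which then enters the nucleus and acts with Tcf/Lef factors on target genes. The pathway is known for its part in ES cell self-renewal, in gastrulation and in the patterning of the neural tube.

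Values are log2 signals after normalization over the 8 arrays, and a gene is represented by its brightest probe. Ago enrichment, E, is the log2 of Ago–RNA over total RNA within a stage, and ΔE is its change between consecutive stages. A gene is said to rise or fall where the difference reached 1 on the log2 scale, with no test behind the word. Where 1 of the arrays compared was not well above background, as the scanner software defines it, a dim value below the lowest signal well above background on that array was raised to it, a dim value above that signal was kept, and the fold is given as "at least". The SD between repeated spots, which holds no biological variation, was between 0.126 and 0.175 for changes in total RNA, between 0.129 and 0.151 for E and between 0.177 and 0.206 for ΔE. Signals of different probes were not compared as levels.

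The stage labels were checked in total RNA. All 6 naive ES markers fell at the ES–ELA transition. Of 2 pluripotent markers Pou5f1 fell from 14.76 in ELA to 7.98 in NPC, while Sox2 neither rose nor fell there. At the ELA–NPC transition 4 of 5 neural progenitor markers rose, and 4 of 4 neuronal markers rose at the NPC–NPC/Neu transition. Of 4 primed epiblast markers 2 rose at the ES–ELA transition and none fell. At the NPC–NPC/Neu transition 2 of the 6 naive markers rose, and the log2 of the summed signal of all 6 went from 11.9 to 12.9. Markers of other cells moved as well. Of 4 mesenchymal markers 3 rose at the ELA–NPC transition (log2 of the summed signal 10.4, 10.9, 12.2 and 11.4 over the stages), 1 of 3 neural crest markers rose (Pax3, 8.09 to 14.08) and 1 fell, and 2 of 6 mesendodermal markers with a value rose (T, 7.19 to 9.73, and Foxa2), whereas Mixl1 and Gata6 were not well above background in total RNA at any stage. The log2 of the summed signal of all 8 mesendodermal markers was 10.9, 11.5, 12.0 and 13.3 over the stages. At the NPC–NPC/Neu transition Eomes alone rose, 1 of 5 with a value, and none fell. The median change of these 5 was -0.42, so the last step of the sum does not describe the list. The part of these other cells in the Wnt pathway values was not tested, and in bulk RNA fewer cells of a type and less RNA per cell cannot be told apart. The ES Ago–RNA array was brighter than the others, with an upper quartile of spot signal of 3039 against 1060 to 1774.

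Since Ago is guided by miRNAs, the 3′ UTRs were searched for the site that pairs with bases 2 to 8 of a miRNA, the seed. The mature miRNAs below, from RefSeq, are shown because they define the sites searched. Their seeds are in capitals. miR-294 and miR-302b, miRNAs of pluripotent cells, share a seed, miR-9 is a neural miRNA, and let-7a is known from differentiating cells.
mmu-miR-294-3p: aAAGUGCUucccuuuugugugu
mmu-miR-302b-3p: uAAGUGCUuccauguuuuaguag
mmu-miR-9-5p: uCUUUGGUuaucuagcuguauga
mmu-let-7a-5p: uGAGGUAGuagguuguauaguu

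A site for miR-294 and miR-302b lay in the 3′ UTR of 9 of 45 members, 20.0%, against 13.4% of 18638 genes with a 3′ UTR. A let-7a site lay in 8 members, 17.8% against 8.41%, and a miR-9 site in 5 members, 11.1% against 11.3%. The members' 3′ UTRs were longer than those of all genes, with medians of 1632 and 856 bases, and the part of length in these shares was not tested. Of the 7 members with an E of at least 1 at some stage, described below, Wnt1 and Tcf7l1 had a let-7a site and none had a site for the other seeds. The following stretches of 30 bases, from mm9 (NCBI37), hold the let-7a sites of these genes and, as examples, the miR-294 sites of some members whose total RNA rose or fell, with the match in capitals.
Wnt1 (chr15:98623530-98623559, plus strand, let-7a): cctgacccagcCTACCTCcctccctctttg
Tcf7l1 (chr6:72576983-72577012, minus strand, let-7a): gagatatctctCTACCTCttctcttcctga
Wnt8b (chr19:44587949-44587978, plus strand, miR-294): tgggtatccacAGCACTTttgaagcagaga
Wnt9a (chr11:59145503-59145532, plus strand, miR-294): ctctgaccctgAGCACTTccgtggagtatc
Fzd10 (chr5:129109834-129109863, plus strand, miR-294): agtggtcttgaAGCACTTgggaagacaaac
Lef1 (chr3:130926985-130927014, plus strand, miR-294): gtaaaaagcccAGCACTTgaattgttcttt
The miR-294 sites of Wnt7b, Fzd8 and Sfrp4, whose total RNA also rose or fell at a transition, are not shown. A match is a run of letters and not a measured binding site.

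In total RNA, 42 of the 45 genes were well above background at 1 stage or more and 30 at all 4. Wnt2, Wnt2b and Dkk4 were not well above background on any of the 8 arrays. The number of members above background in total RNA was 36 for ES, 33 for ELA, 42 for NPC and 38 for NPC/Neu. Of all non-control spots 60.6%, 55.1%, 60.6% and 59.3% were well above background on these arrays, so ELA was lowest over the whole array too. The plot of total RNA signal by stage gives every value.

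**Figure D1:**
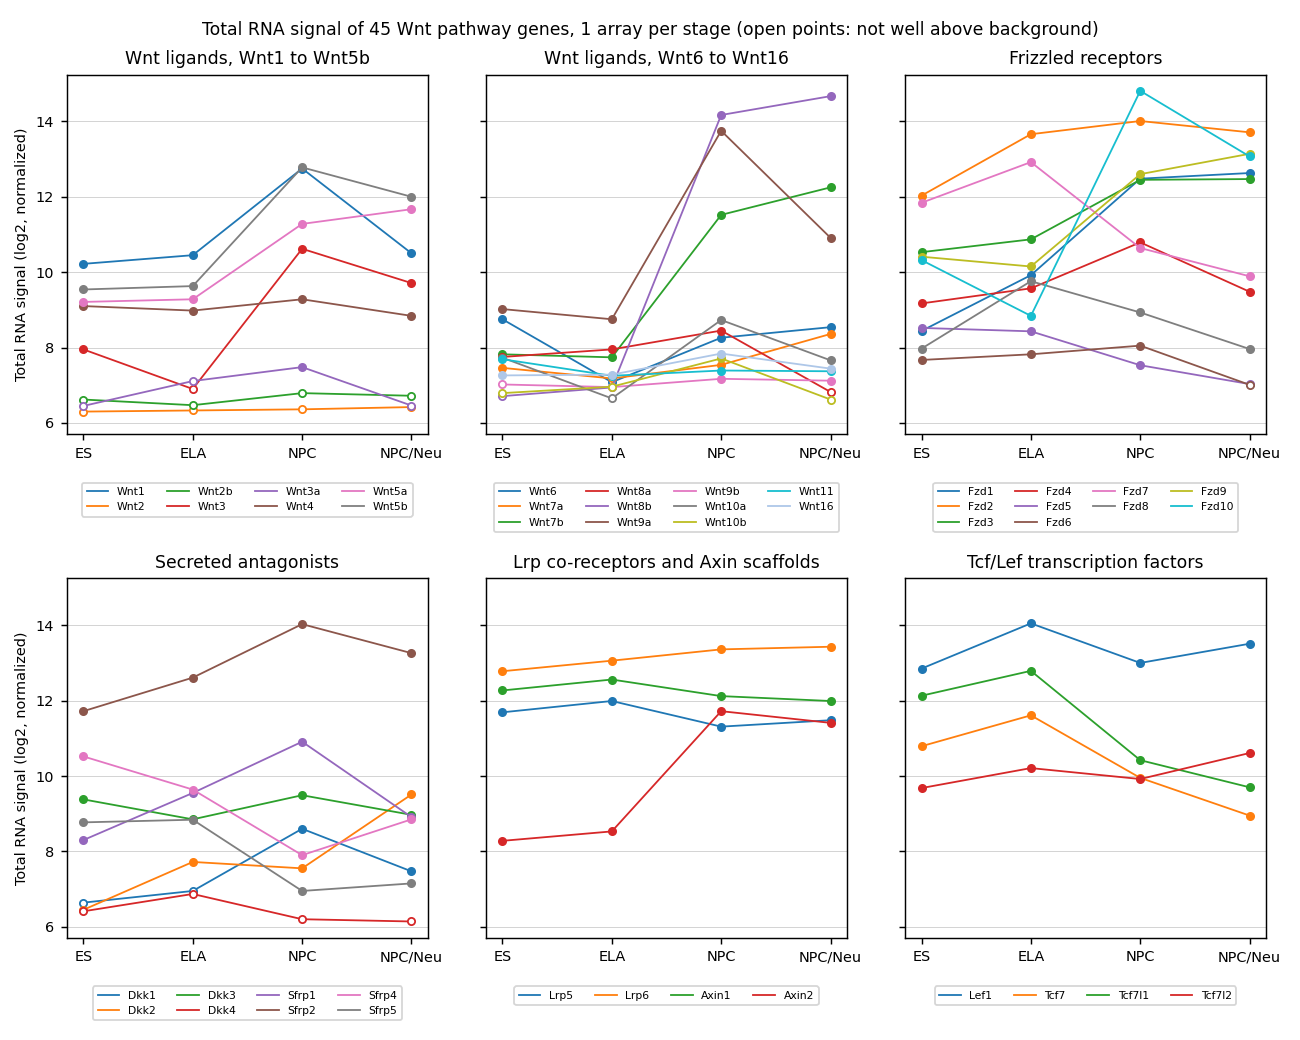
Total RNA signal (log2, normalized) of the 45 genes at the 4 stages, in 6 panels by role, with 1 array per stage and no error bar. Open points are not well above background. Wnt8b, Wnt9a and Fzd10 climb steeply between ELA and NPC, while Tcf7l1, Tcf7 and Fzd7 descend.

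At the ES–ELA transition 4 Frizzled receptors, Fzd1, Fzd2, Fzd7 and Fzd8, rose together with Sfrp1 and Lef1. These were 6 of 37 members with a value, 16.2%, against 4.99% of all genes. Fzd10 fell, and Wnt6 as a bound, which is 2 of 37 members against 4.7% of all genes. When the processed intensity was used and arrays were scaled to their 75th percentile, 7 rose and 4 fell, while the share of all genes that changed went from 9.7% to 16.4%. The median change of the members was 0.20, against 0.00 for all genes.

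The ELA–NPC transition held the largest change. Of 42 members with a value 18 rose, 42.9% against 11.0% of all genes, and 6 fell, 14.3% against 10.0%. Among the 33 members above background on both arrays 13 rose, 39.4% against 10.4% of all genes under the same filter. The rise took in 9 ligands, 5 Frizzled receptors, 3 antagonists and Axin2, and the fall took in 3 of the 4 Tcf/Lef factors. The median change was 0.53, with 0.00 for all genes, and 0.35, with -0.05 for all genes, over the 33 members above background on both arrays.

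At the NPC–NPC/Neu transition the direction turned. Of 42 members 9 fell, 21.4% against 4.41% of all genes, and 1 rose, against 6.16%. Wnt8a and Fzd6, dim in NPC/Neu, fell as bounds. Among the 38 members above background on both arrays 7 fell, 18.4% against 4.46% of all genes under the same filter. With the processed intensity and quantile normalization 14 fell and 3 rose, with 17.1% of all genes changed against 10.6%, and with an offset of 0 in the background correction 13 fell and 3 rose, with 13.4%. Both neighboring transitions share the array of the stage between them, so a high or low value on it moves them in opposite directions.

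**Figure D2:**
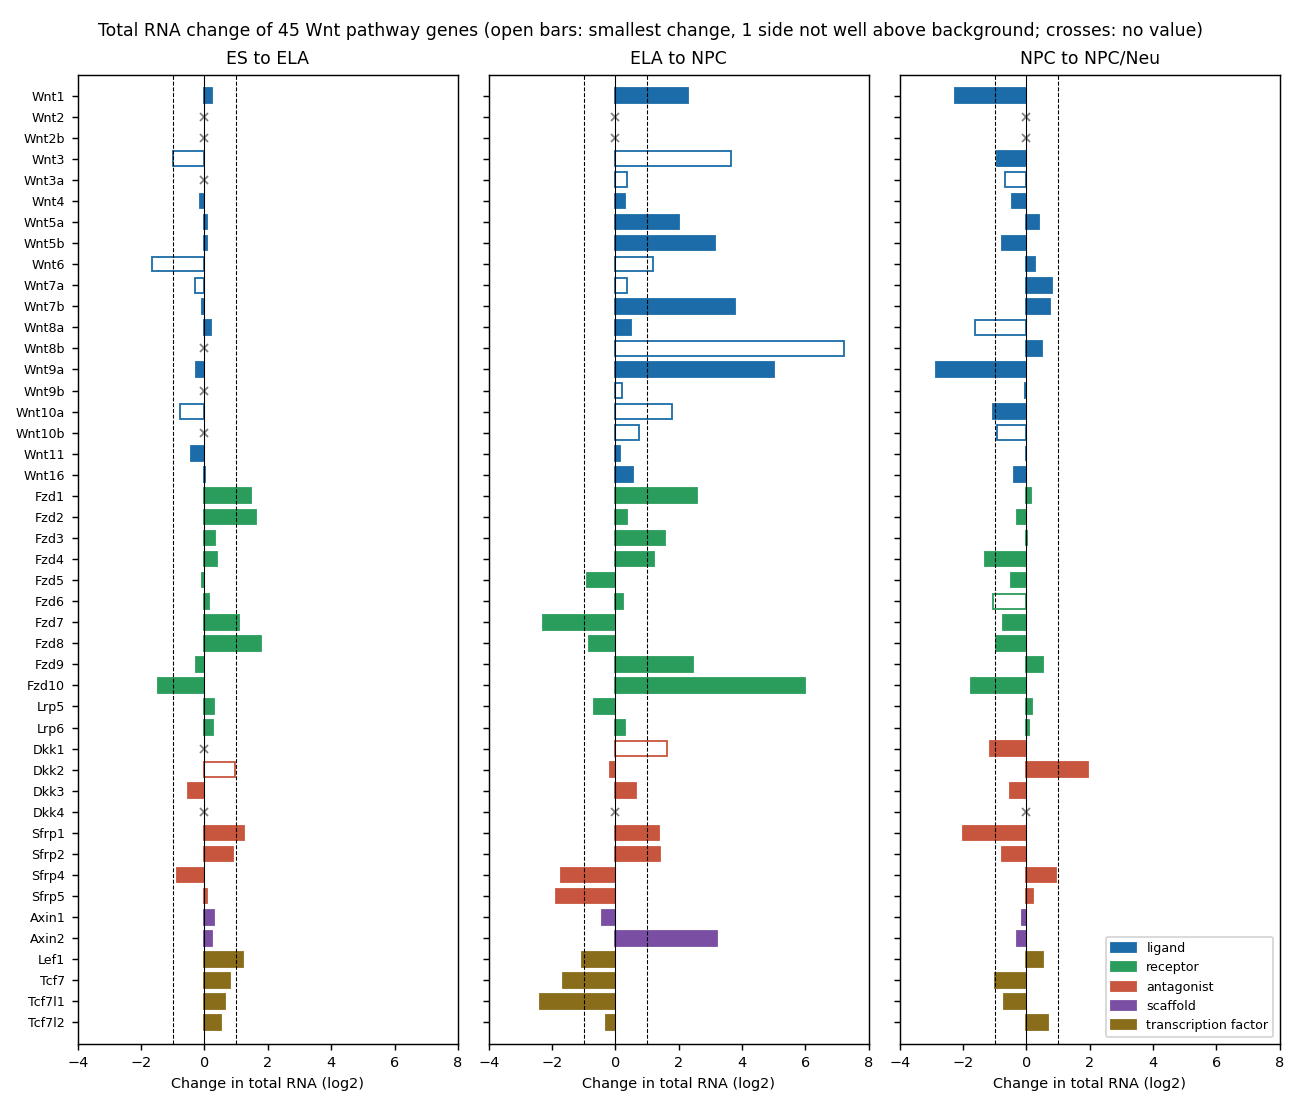
Change in total RNA (log2) of each gene at the 3 transitions, colored by role, with dashed lines at -1 and 1. Open bars are the smallest change where 1 array was not well above background, and crosses mark genes with no value. In the middle panel Wnt8b reaches 7.21, and 8 of the 17 ligand bars are open, so that their direction was fixed by their being above background in NPC alone.

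Among the ligands, 9 of 19 were above background on both arrays of the ELA–NPC transition, and 5 of them rose, Wnt1, Wnt5a, Wnt5b, Wnt7b and Wnt9a. Another 8 were above background in NPC and dim in ELA, which fixes their direction, and 4 of these, Wnt3, Wnt6, Wnt8b and Wnt10a, were past 1 as bounds. Wnt8b, a ligand of the developing forebrain, was not well above background in ES (6.71) and ELA (6.94) and stood at 14.17 in NPC and 14.67 in NPC/Neu. It was thus at least 148-fold higher in NPC than in ELA, and its other probe, in the coding sequence, went the same way, from 6.54 to 12.45. Wnt9a gave 9.02, 8.75, 13.75 and 10.91 in ES, ELA, NPC and NPC/Neu, a 31.9-fold rise followed by a 7.14-fold fall. Its highest value was that of NPC, and NPC/Neu stayed above both earlier stages.

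Wnt1, a ligand of the midbrain and dorsal neural tube, gave 10.22, 10.45, 12.75 and 10.50 over the 4 stages, so that NPC stood alone above the others. It was 4.93-fold higher in NPC than in ELA and 4.77-fold lower in NPC/Neu than in NPC. Wnt7b, which acts in the developing forebrain, did not come down again, with 7.82, 7.74, 11.52 and 12.25 and a 13.7-fold rise at the ELA–NPC transition. Wnt5b (9.54, 9.63, 12.78 and 12.00) rose 8.87-fold, and Wnt5a (9.21, 9.28, 11.28 and 11.67), the classical ligand of the non-canonical branch, 4.01-fold. Both were level between ES and ELA and high at both later stages.

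Wnt3, needed for gastrulation, was above background in ES (7.95), dim in ELA (6.90) and high in NPC (10.62) and NPC/Neu (9.71), at least a 12.7-fold rise at the ELA–NPC transition. Wnt6 was likewise above background in ES (8.75), dim in ELA (7.08), and 8.26 and 8.54 later, a fall of at least 3.17-fold and then a rise of at least 2.27-fold. Wnt10a was dim in ELA and rose at least 3.4-fold at the ELA–NPC transition, then fell 2.09-fold. Wnt8a fell at least 3.1-fold at the NPC–NPC/Neu transition, where it was no longer above background. Wnt4, Wnt11 and Wnt16 kept within 1 on the log2 scale at every transition, and Wnt3a, Wnt9b and Wnt10b, dim in ES and ELA, were above background in NPC at 7.48, 7.17 and 7.71.

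The Frizzled receptors did not move as a family. Fzd10 gave 10.32, 8.84, 14.81 and 13.07 in ES, ELA, NPC and NPC/Neu, a 2.79-fold fall, a 62.7-fold rise and a 3.35-fold fall, with ELA the lowest stage. Fzd1 climbed at both of the first transitions (8.44, 9.92, 12.48 and 12.63), by 2.78-fold and 5.88-fold. Fzd9 rose 5.47-fold (10.41, 10.15, 12.60 and 13.14) and Fzd3, a receptor of axon guidance, 2.99-fold (10.53, 10.87, 12.45 and 12.47) at the ELA–NPC transition, and neither moved past 1 elsewhere.

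Fzd7, a receptor known from pluripotent cells, took the opposite course on its brightest probe. It gave 11.84, 12.92, 10.64 and 9.89, a 2.11-fold rise to ELA and a 4.86-fold fall to NPC. A second Fzd7 probe, in the coding sequence, gave 8.71, 10.14, 9.55 and 9.16. Its change to NPC was -0.59 on the log2 scale, and it stayed above its ES value, so the size of the fall depends on the probe. Fzd2 rose 3.11-fold at the ES–ELA transition (12.03, 13.66, 14.01 and 13.71) and stayed high. Fzd8 rose 3.46-fold there (7.97, 9.76, 8.93 and 7.96) and came back to its ES value in NPC/Neu. Fzd4 peaked in NPC (9.17, 9.57, 10.79 and 9.48). Fzd5 kept within 1 at each transition on its brightest probe, but its probe in the 3′ UTR went from 8.59 in ELA to a dim 6.89 in NPC. Fzd6 fell below background in NPC/Neu, at least 2.06-fold. The co-receptors were level by comparison, with Lrp5 between 11.31 and 11.99 and Lrp6 between 12.78 and 13.43.

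Of the secreted antagonists, Sfrp1 and Sfrp2, Frizzled-related proteins that bind Wnt ligands, rose to NPC. Sfrp1 gave 8.30, 9.55, 10.91 and 8.91, and Sfrp2 gave 11.72, 12.61, 14.03 and 13.26. Sfrp1 then fell 3.99-fold in NPC/Neu. Sfrp4 (10.52, 9.64, 7.90 and 8.85) and Sfrp5 (8.77, 8.84, 6.95 and 7.15) fell at the ELA–NPC transition, by 3.32-fold and 3.69-fold, so that this family split. The Dickkopf proteins Dkk1 and Dkk2 bind the Lrp co-receptors. Dkk1, also a target of the pathway, was dim in ES and ELA, 8.60 in NPC and 7.47 in NPC/Neu, at least a 3.13-fold rise and then a 2.20-fold fall. Dkk2 rose at the NPC–NPC/Neu transition, from 7.55 to 9.51, 3.88-fold. Sfrp4 passed 1 there as well with offsets of 16 and 0 and with the processed intensity, and Wnt7a with an offset of 0 and with the processed intensity. Dkk3 kept within 1 throughout.

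Axin2, a scaffold of the beta-catenin destruction complex and a commonly used readout of canonical Wnt activity, gave 8.28, 8.53, 11.72 and 11.41, a 9.18-fold rise at the ELA–NPC transition with both later stages above both earlier ones. A second Axin2 probe, in the coding sequence, was dim in ES (6.90) and gave 7.29, 8.70 and 8.44 later. It rose less at the ELA–NPC transition, by 1.41 on the log2 scale. Axin1, the constitutively expressed relative of Axin2, stayed between 11.99 and 12.56. Of the Tcf/Lef factors 3 of 4 went the other way. Tcf7l1, a repressor that limits self-renewal in ES cells, gave 12.13, 12.79, 10.42 and 9.70, and fell 5.17-fold at the ELA–NPC transition. Tcf7 fell 3.16-fold there (10.79, 11.61, 9.95 and 8.95). Lef1 rose 2.31-fold to ELA and fell 2.07-fold to NPC (12.85, 14.05, 13.00 and 13.51). Tcf7l2 stayed between 9.68 and 10.61 on its brightest probe. A probe across the end of its coding sequence climbed from 7.82 in ES to 9.54 in NPC/Neu, and 1 in the 3′ UTR from a dim 6.78 to 8.27.

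Promoters of 30 members, 250 bases before to 50 after the start in RefSeq (GRCm38.p6, another build than the arrays), were searched for the core Tcf/Lef words CTTTGA and CTTTGT on both strands. At least 1 word was found for 11 of the 30 members, 36.7%, against 34.5% of 27025 genes with a promoter, a share near that of all genes. Axin2 was not among the 11. Where a gene had several starts, a word at any of them counted. Lef1, Wnt5b and Tcf7l2 had no word at their most upstream start.

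Of 58 further genes of the pathway, 15 of 55 with a value rose and 3 fell at the ELA–NPC transition, where 11.0% and 10.0% of all genes did. Some of these are bounds whose direction was fixed by the stage above background. Rspo2, Frzb and Sostdc1, dim in ELA, are among those that rose, and Kremen2 and Dact2, dim in NPC, among those that fell. At the ES–ELA transition 7 of 51 rose and 2 fell, with 4.99% and 4.7% of all genes. At the NPC–NPC/Neu transition 6 of 52 rose and 3 fell, with 6.16% and 4.41%, whereas more members fell than rose there. The R-spondins enhance Wnt signaling by keeping Frizzled receptors at the cell surface. Rspo3 gave 7.13, 7.28, 15.03 and 15.58, and Rspo2 was dim in ES and ELA and 14.85 and 14.69 later. Rspo1 rose at both of the first transitions (11.78, 13.82, 15.89 and 15.04). Wls, which carries Wnt ligands to the cell surface, gave 9.51, 10.39, 14.80 and 13.88, and Porcn, which attaches their lipid, 10.58, 8.85, 11.51 and 11.92. Of 12 known target genes outside the members, 6 rose and none fell at the ELA–NPC transition, where 11.0% and 10.0% of all genes did, among them Nkd1 (9.52 to 13.35) and Sp5, which was 10.81 in ES, dim in ELA, and 13.00 and 13.20 later. At the ES–ELA transition 1 of the 12 rose and 3 fell, and at the NPC–NPC/Neu transition none rose and 2 fell. T is also counted above as a mesendodermal marker, and Nkd1, Lgr5, Notum, Znrf3 and Rnf43 stand in other lists of the pathway as well.

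Ago enrichment of the Wnt pathway genes was modest at every stage. The median E of the members was 0.37 for ES, 0.14 for ELA, 0.24 for NPC and 0.47 for NPC/Neu, with 0.05, -0.04, 0.01 and 0.04 for all genes. E was above 0 in 29 of 38 members for ES, 20 of 33 for ELA, 34 of 42 for NPC and 34 of 40 for NPC/Neu, and in 52.5%, 46.5%, 50.8% and 51.9% of all genes. Of these members 36, 31, 42 and 38 were above background on both arrays, and for any others the filter fixed the sign. Over members above background on both arrays the median E was 0.38, 0.15, 0.24 and 0.41. Under the same filter it was 0.04, -0.03, 0.05 and 0.09 for all genes. The number that reached 1 was 2 of 38 in ES, with 10.6% of all genes, in ELA 2 of 33, with 4.11%, in NPC 3 of 42, with 6.01%, and in NPC/Neu 4 of 40, with 12.0%. No member was at -1 or lower in ES, ELA or NPC, where 11.8%, 3.24% and 6.72% of all genes were, and 1 of 40, Tcf7l2, was in NPC/Neu, against 12.7%. Its probes disagree in sign, as described below, and with the mean over all probes none was. These numbers depend on how the arrays are scaled. With scaling to the 75th percentile 1, 2, 3 and 1 members were at -1 or lower over the 4 stages and 2, 2, 5 and 7 at 1 or higher, with 37.6%, 15.0%, 20.5% and 34.8% of all genes past 1 in either direction. With Ago–RNA and total RNA normalized separately none was at -1 or lower, and 8 of 38 in ES and 12 of 40 in NPC/Neu were at 1 or higher, with 25.6% and 28.2% of all genes past 1 in either direction. With the processed intensity and quantile normalization 14 of 40 were at 1 or higher in NPC/Neu, with 34.0%. In the setting used throughout the shares of all genes were 22.4%, 7.35%, 12.7% and 24.8%.

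**Figure D3:**
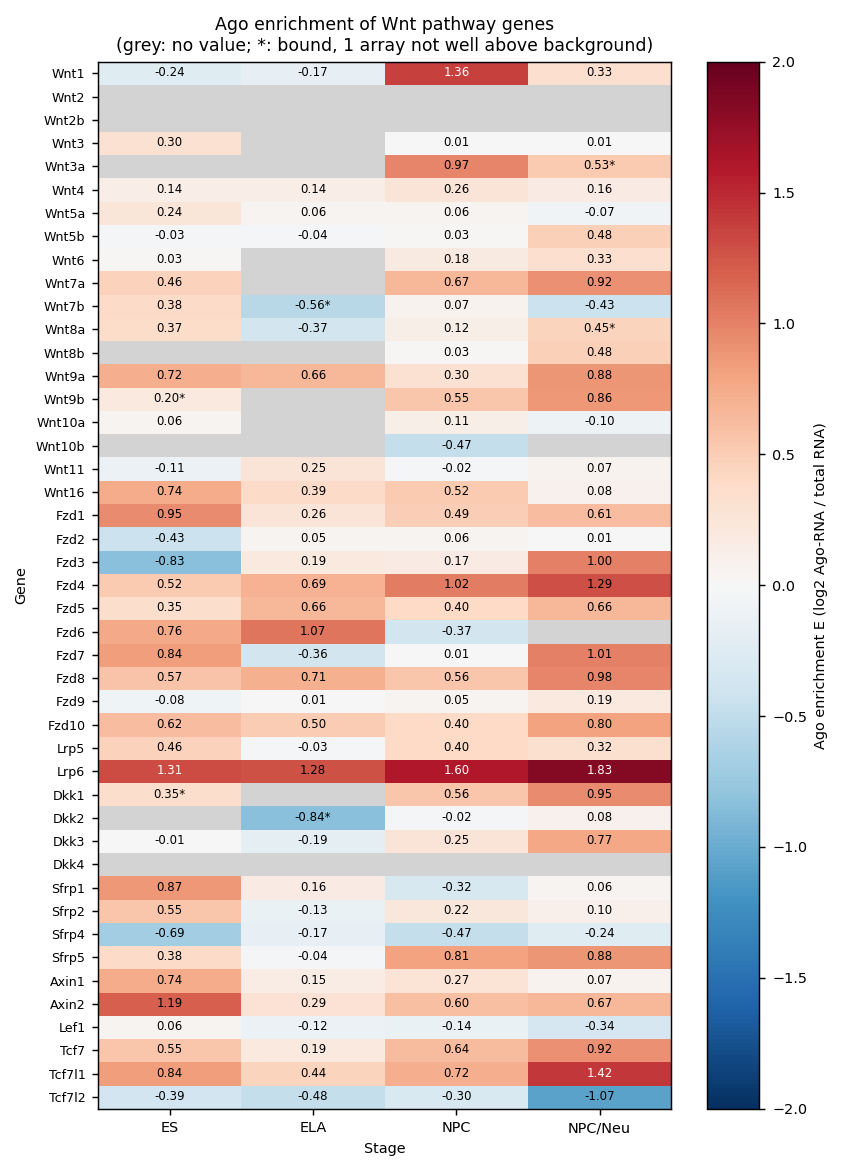
Ago enrichment E (log2 Ago–RNA over total RNA) of each gene at the 4 stages, 1 array pair per stage, from blue (below 0) to red (above 0). Grey cells have no value, and an asterisk marks a bound. Lrp6 is red at all 4 stages, and Wnt1 in NPC.

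Lrp6 was the only member with an E past 1 at all 4 stages, 1.31, 1.28, 1.60 and 1.83. Its total RNA was 12.78, 13.06, 13.36 and 13.43, and its Ago–RNA 14.09, 14.34, 14.96 and 15.26, so that Ago–RNA lay above total RNA at every stage, by most in NPC/Neu. A second probe, in the coding sequence, gave 1.29, 1.36, 1.32 and 0.94. Of the other receptors, Fzd4 had an E of 0.52, 0.69, 1.02 and 1.29, Fzd6 reached 1.07 in ELA and Fzd7 1.01 in NPC/Neu. Axin2 had an E of 1.19 in ES and 0.29, 0.60 and 0.67 later, and Tcf7l1 an E of 0.84, 0.44, 0.72 and 1.42. A second Axin2 probe, in the coding sequence, gave 0.32, 1.41 and 1.5 in ELA, NPC and NPC/Neu. Whether the E of Axin2 passed 1 in NPC and NPC/Neu thus depends on the probe.

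Wnt1 was the ligand with the largest E. Its E was -0.24 for ES, -0.17 for ELA, 1.36 for NPC and 0.33 for NPC/Neu, since Ago–RNA (9.97, 10.28, 14.11 and 10.83) rose more than total RNA (10.22, 10.45, 12.75 and 10.50) in NPC and fell more afterwards. A second Wnt1 probe, in the coding sequence, was above background on both arrays in NPC alone, and its E there was 1.35. Other ligands with large rises in total RNA had no such E in NPC, with 0.03 for Wnt8b, 0.30 for Wnt9a, 0.07 for Wnt7b and 0.03 for Wnt5b.

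**Figure D4:**
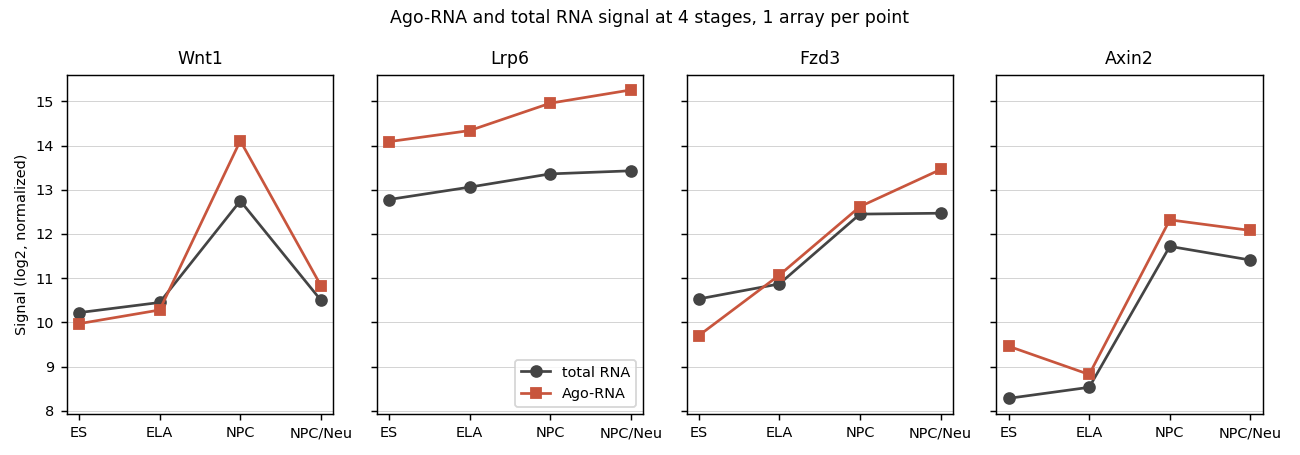
Ago–RNA (squares) and total RNA (circles) signal, log2 and normalized, of Wnt1, Lrp6, Fzd3 and Axin2 at the 4 stages, 1 array per point. The lines of Wnt1 part in NPC, those of Lrp6 stay apart at all stages, and those of Fzd3 cross.

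ΔE reached 1 in few members. At the ES–ELA transition Fzd3 (1.02) was 1 of 39 members past 1 and Fzd7 (-1.20) 1 of 39 at -1 or lower, where 7.97% and 6.71% of all genes were. At the ELA–NPC transition Wnt1 (1.53) was past 1, the single such member among the 31 above background on all 4 arrays, with 2.93% of all genes, or 1.96% under that filter. Wnt3a, dim on both ELA arrays, has no interpretable ΔE there. Fzd6 (-1.44) was at -1 or lower, with 3.53%. With scaling to the 75th percentile 8 members were past 1 there and 2 at -1 or lower, while the share of all genes past 1 in either direction went from 6.45% to 13.5%. At the NPC–NPC/Neu transition Fzd7 (1.00) was past 1, with 2.32% of all genes, and Wnt1 (-1.03) at -1 or lower, with 4.62%. The Fzd7 values rest on its brightest probe, since a second probe, in the coding sequence, gave a ΔE of -0.65 and 0.21 at the same transitions, and the mean over both probes -0.93 and 0.61. The value at the NPC–NPC/Neu transition also lay below 1 in 3 other settings, at 0.96, 0.96 and 0.98. The median ΔE was -0.18, 0.16 and 0.19 at the 3 transitions, with -0.03, 0.05 and 0.02 for all genes.

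Under the study's own thresholds for release from Ago or loading onto it (E of at least 2 at one stage, at most 0.5 at the other, and a ΔE of 1.5 or more), no member was called at any transition. These thresholds called 0.465%, 0.174% and 0.0995% of all gene names at the 3 transitions, and the largest E of a member was 1.83. Outside the members, Ctnnb1, the gene of beta-catenin, had an E of 2.06 for ES, 0.38 for ELA, 0.72 for NPC and 2.01 for NPC/Neu, with total RNA between 14.69 and 15.62. With a ΔE of -1.67 at the ES–ELA transition, its brightest probe met these thresholds for release there. Apc2, of the destruction complex, reached an E of 3.12 in NPC/Neu, and Tnks2, a tankyrase that marks Axin for destruction, 2.31. Nkd2, an inhibitor that binds Dishevelled, was depleted, with an E of -2.13, -1.58, -1.98 and -2.89, and Dkkl1, related to the Dickkopf genes, had an E of -2.30 in NPC/Neu.

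Across all genes E went with transcript length, with a Spearman correlation of 0.59, 0.35, 0.36 and 0.48 at the 4 stages over at least 13509 genes. Over the members it was 0.26, 0.24, -0.09 and -0.06 (31 to 42 genes). The members' transcripts were longer, with medians of 3487, 3628, 3466 and 3487 bases against 2831, 2886, 2920 and 2945 for all genes. The part of length in the members' higher median E was not tested. These are descriptions over genes that share the same arrays.

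Where a gene had several probes, E could depend on the probe. The case is Tcf7l2, whose 3 probes lie at opposite ends of the gene. The probe used above is in the coding sequence near the start, and its E was -0.39, -0.48, -0.30 and -1.07. A probe across the end of the coding sequence gave 1.29, 0.83, 0.86 and 1.56, and a probe in the 3′ UTR 1.17, 1.02 and 1.57 from ELA on. Both sides thus had opposite signs at every stage, and the direction of Tcf7l2 enrichment is not settled by these arrays. Coding-sequence probes of Tcf7l2, Wnt1 and Lrp6 are shown here in mm9 coordinates, to give the stretch of mRNA each value comes from. All letters pair with the target, so none is capitalized.
Tcf7l2 (chr19:55817272-55817331, plus strand): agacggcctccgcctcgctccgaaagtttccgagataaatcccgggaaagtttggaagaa
Wnt1 (chr15:98623276-98623335, plus strand): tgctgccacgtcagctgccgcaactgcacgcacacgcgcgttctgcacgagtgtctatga
Lrp6 (chr6:134404723-134404782, minus strand): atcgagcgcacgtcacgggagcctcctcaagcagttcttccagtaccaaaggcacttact

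**Figure D5:**
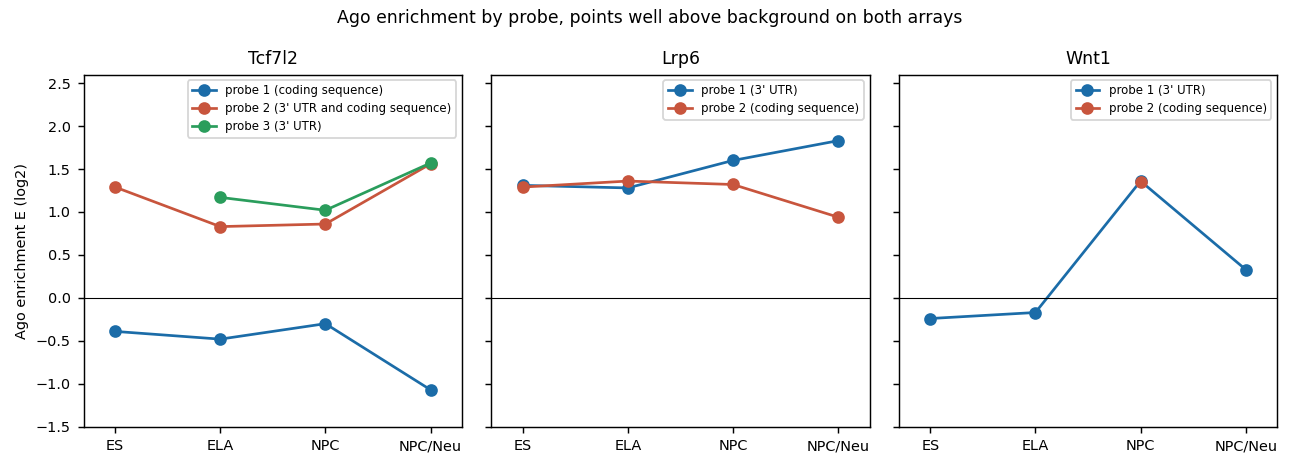
Ago enrichment E (log2) of each probe of Tcf7l2, Lrp6 and Wnt1 at the stages where it was well above background on both arrays. The Tcf7l2 probe in the coding sequence lies below 0 and the other probes above it at every stage, while the Lrp6 and Wnt1 probes lie on the same side of 0 wherever 2 were measured.

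Other genes with 2 probes differed less in sign. Axin2 gave 0.60 and 1.41 in NPC and 0.67 and 1.5 in NPC/Neu, Wnt8b 0.48 and -0.52 in NPC/Neu, and Fzd5 0.35 and 1.21 in ES.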

How the data were processed

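The authors deposited spot intensity as written by Agilent Feature Extraction 10.7.3.1, per the file headers (the submitters' notes name 9.1): the mean intensity of each spot, its local background and a processed intensity, none normalized between arrays. From these, normexp correction (offset 50) and quantile normalization over the 8 arrays were computed in limma 3.58.1 under R 4.3.3, irregular spots were left out and repeated spots averaged. The threshold for Ago binding was fitted with mclust 6.1.1 with a fixed random seed, since its fit starts from a random subset of probes. Other values were computed with Python 3.11.15 and pandas 2.3.3. Because quantile normalization makes the arrays' distributions equal, a difference between Ago–RNA and total RNA that affects all genes alike is removed, whatever its source. Recovery that differs between transcripts is not removed. Probe positions, 3′ UTRs and sites come from GENCODE on mm9. The number of arrays limits the precision, and no p-value is given. Calls were also run on simulated data, in which 200 genes were given a rise far past the threshold and every probe counted as above background. That could not test the rule for dim values, and nothing is concluded from it. Any member may be named, as may genes of the other lists that reached 2 on the log2 scale or led a transition. Porcn is of these, and the markers named were picked as examples after their values were seen. The members and lists were chosen with earlier results of these data known. Control immunoprecipitations were not used here. Alternatives are described in the closing section.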

Additional observations from a re-analysis of the deposited data

Results flagged for a closer look

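Fzd3 was the only member, among those above background on both arrays of a stage, with an E of -0.5 or lower at one stage and 0.5 or higher at another. Its E was -0.83 in ES and 1.00 in NPC/Neu, with 0.19 and 0.17 in ELA and NPC. Before rounding the NPC/Neu value lay just below 1, so Fzd3 is not counted among the members whose E reached 1. Each value rests on 1 pair of arrays, and the difference was not tested.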

How the results depend on the processing

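Each of the 10 counts and medians was recomputed under 8 planned settings and 1 chosen after seeing the data, quantile normalization without the ES Ago–RNA array, which gives no value for results that need that array. The count at the ES–ELA and ELA–NPC transitions in total RNA stayed within 1.5 times its value under every setting that was run. All 42 total RNA changes past 1 kept their direction wherever they had a value. The counts and medians that moved were as follows. With an offset of 16 and with an offset of 0, 5 members had a ΔE past 1 in either direction at the ELA–NPC transition, against 3 (Wnt3a, not interpretable, included). With an offset of 0, 16 members changed in total RNA at the NPC–NPC/Neu transition, against 10, and 5 in ΔE at the ES–ELA transition, against 2. With the processed intensity and quantile normalization these became 17 and 5, the ΔE count at the ELA–NPC transition 8, and the median E in ES 0.52. With the processed intensity scaled to the 75th percentile, the median E in ES was 0.08, and the ΔE counts were 4, 10 and 1 at the 3 transitions, with 27.2%, 13.5% and 13.4% of all genes against 14.7%, 6.45% and 6.94%. This scaling moved the median E of all genes in ES to -0.31, so that the members stayed above it. With Ago–RNA and total RNA arrays quantile normalized separately, the median E was 0.35 for ELA, 0.51 for NPC and 0.70 for NPC/Neu, while the medians of all genes were 0.17, 0.18 and 0.20, and the ΔE count at the NPC–NPC/Neu transition was 1, against 2. With the mean over all probes of a gene, the ΔE count was 1 at the ES–ELA and 1 at the NPC–NPC/Neu transition, and the E of Tcf7l2 in NPC/Neu turned from -1.07 to 0.69, since its other probes lie above 0. Without a filter on dim probes the median E in NPC/Neu was 0.33. Without the ES Ago–RNA array in the normalization, the ΔE count at the NPC–NPC/Neu transition was 1. The cause of the other shifts was not tested. No paired analysis was possible because each condition has 1 array and no result comes from a test, and no array could be left out of a group. Array signal over background limits the genes dim in ES and ELA, whose changes are bounds.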
